A study of Homo sapiens with 4 samples.

Results

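NRSF/REST bound 427 sites in long noncoding RNA (lncRNA) genes of H295R adrenocortical tumor cells both at the basal and at the increased SF-1 dosage. These sites were selected on the deposited site lists themselves. A site of the basal list was kept when it overlapped a site of the increased-dosage list by at least 1 bp, when its midpoint lay inside a lncRNA gene, outside every protein-coding gene and more than 2 kb from every protein-coding 5′ end, and when it touched no coding exon. The 427 sites were 12.4% (95% Wilson interval 11.4 to 13.6) of the 3431 basal sites shared between dosages, out of 5323 sites in the basal list and 5059 in the increased-dosage list. They fell in 404 lncRNA genes.

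H295R/TR SF-1 cells are a subclone of a human adrenocortical carcinoma line in which doxycycline induces SF-1 (NR5A1), the nuclear receptor that drives steroid hormone production. There was 1 NRSF/REST library from cells at the basal SF-1 dosage and 1 from cells given doxycycline for 3 days before fixation, both with the same antibody against NRSF/REST. The 2 input DNA libraries were not analysed here. All samples came from this 1 line, the lists hold no read counts and every site carries the same score of 1000, so depth and binding strength are unknown, no replicate error can be given and no test between dosages was possible. Intervals below are 95% Wilson intervals and cover counting error over sites only.

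NRSF/REST is a zinc finger repressor that recognises a long DNA element made of a left and a right part and recruits corepressor complexes that modify histones. It keeps neuronal genes silent outside the nervous system, and its known targets include genes of neuronal microRNAs and lncRNAs besides ion channels, receptors and synaptic proteins. LncRNA genes are transcribed without coding for a protein, and many are long and named after a microRNA they host or after a neighbouring coding gene.

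The NRSF/REST consensus was written as CTGTCC, any 2 bases, GGTGCTG and was looked for on both strands. The lines below show it in members picked, after their values were seen, from the wide sites that hold it without mismatch or in several copies, and in SOX2-OT as a gene of the neural list described further on. Other sites of these kinds are not shown. Each line gives 21 bases of hg19 read in the direction of the consensus, 5′ to 3′, with the fixed positions in capitals.
ZIM2-AS1, chr19:57150776-57150796, plus strand: tgctCTGTCCatGGTGCTGaa
ZIM2-AS1, chr19:57149489-57149509, minus strand: ggggCTGTCCgtGGTGCTGaa
ZIM2-AS1, chr19:57149534-57149554, minus strand: tgagCTGTCTgcGGTGCTGaa
ZIM2-AS1, chr19:57149585-57149605, minus strand: ggggCTATCCgtGGTGCTGaa
ZIM2-AS1, chr19:57149648-57149668, minus strand: ggggCTGCCTgtGGTGCTGaa
MIR9-1HG, chr1:156384452-156384472, plus strand: ggagCTGTCCgtGGTGCTGga
LINC00698, chr3:63053882-63053902, plus strand: ggagCTGTCCtcGGTGCTGaa
ENSG00000287469, chr16:49192128-49192148, plus strand: tgagCTGTCCatGGTGCTGat
GNAO1-DT, chr16:56048045-56048065, minus strand: ggagCTGTCCgtGGTGCTGca
PDYN-AS1, chr20:1986647-1986667, minus strand: atcgCTGTCCgtGGTGCTGaa
SOX2-OT, chr3:181034462-181034482, plus strand: ggcaCTGTCCtaGGTGCTGaa
ENSG00000232413, chr9:128845137-128845157, minus strand: gcctCTGTCCatGGTACTGca
MIR7-3HG, chr19:4769585-4769605, minus strand: agagCTGTCCctCGTGCTGaa
MIR7-3HG, chr19:4769744-4769764, minus strand: ggagCTGTCCagGGTTCTGga

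Below, a substitution gives the consensus base, its position and the base found, where position 1 is the first C of CTGTCC. The ENSG00000232413 sequence carried G12A, and the MIR7-3HG sequences carried G9C and G12T. The 3 inexact ZIM2-AS1 copies carried C6T, G3A, and T4C with C6T. A match to these letters is a description of the sequence and not a proof that the protein touched it.

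At most 2 mismatches over the 13 fixed bases counted as the consensus. It was present in 270 of the 427 sites, or 63.2% (58.6 to 67.7), and in 23 of 854 windows of equal width placed 10 kb to either side, or 2.69% (1.80 to 4.01). Among all 3431 shared sites 58.9% held it. Shared noncoding sites inside protein-coding genes held it in 64.0% (61.2 to 66.7) and shared sites in no gene in 53.1% (50.2 to 56.0). The share in lncRNA genes was thus close to that inside coding genes, and its interval did not overlap that of sites in no gene. Among sites in which every word of 32 bases occurs once in the genome, 65.4% (59.7 to 70.6) of members, 64.2% (61.0 to 67.3) of sites inside coding genes and 62.8% (59.0 to 66.4) of sites in no gene held it, with overlapping intervals. No test across sites was made.

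Exact copies were rarer. The consensus without mismatch was found in 63 members, or 14.8% (11.7 to 18.4), against 17.1% of all shared sites, 19.2% (17.1 to 21.6) of shared sites inside coding genes and 13.6% (11.7 to 15.7) of those in no gene. The best match had 1 mismatch in 116 members, 2 in 91 and 3 in 66, and 91 members held no match even at 3 mismatches. At no or 1 mismatch none of the 854 windows held the consensus, which allows a share of up to 0.448% (upper Wilson bound), while 41.9% (37.3 to 46.7) of the members did.

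**Figure D1:**
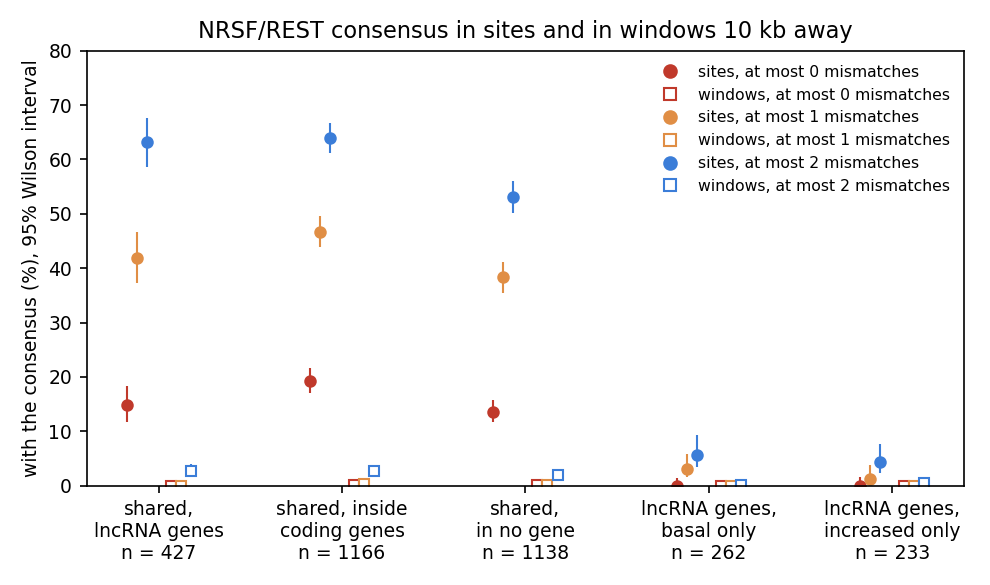
Share of sites (filled circles) and of windows of equal width 10 kb away (open squares) that hold the NRSF/REST consensus with at most 0, 1 or 2 mismatches, in percent with 95% Wilson intervals, for shared sites in lncRNA genes, inside coding genes and in no gene, and for lncRNA-gene sites of only 1 list. Shared lncRNA sites reached 63.2% at 2 mismatches and their windows 2.69%, while sites of a single list stayed at 5.73% and 4.29%.

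LncRNA-gene sites found at only 1 dosage had a different make-up. Of the 689 basal sites that met the gene rule, 427 were shared, or 62.0% (58.3 to 65.5), where 64.5% of all basal sites were shared. The 262 sites of the basal list alone had a median width of 149 bp and held the consensus in 5.73% (3.50 to 9.23), and the 233 of the increased-dosage list alone also had a median of 149 bp and held it in 4.29% (2.35 to 7.72). Neither group held a copy without mismatch. Shared members had a median width of 449 bp, so width differed along with sharing and its part in the consensus share was followed within the members.

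Among the members the consensus share went up with the width of the site. It was 22.7% (12.8 to 37) of 44 sites of 99 to 199 bp, 52.2% (44.5 to 59.9) of 157 sites of 249 to 399 bp, 76.4% (67.6 to 83.3) of 110 sites of 449 to 599 bp and 81.0% (73.0 to 87.1) of 116 sites of 649 bp or more. The median width was 649 bp for sites whose best match had no mismatch, 549 bp for 1 mismatch, 399 bp for 2 and 349 bp for sites without the consensus. The closer the best match was to the consensus, the wider the called site. Neither trend was particular to lncRNA genes. In the same order of width, shared sites inside coding genes held the consensus in 34.8%, 50.2%, 68.9% and 88.2%. Shared sites in no gene held it in 24.4%, 34.1%, 66.4% and 84.0%. Over all shared sites the median width was 699 bp for no mismatch, 549 bp for 1, 449 bp for 2 and 349 bp without the consensus. The match lay near the centre, at a median of 29 bp from the midpoint (quartiles 13 and 63 bp, n = 270). Its strand was that of the lncRNA gene in 139 of 259 members whose genes lie on 1 strand, or 53.7% (47.6 to 59.6).

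The positions of the consensus were not kept equally well in the 270 members that hold it. Position 10, the G that follows the first base of the right part, was kept in 99.6%, and positions 2 and 11 in 99.3% each. Position 12 was kept in 61.1%, position 3 in 81.1% and position 4 in 85.6%. The commonest substitutions outside chromosome 8 were G12C in 46 members, G3C in 34, G12A in 29, T4G in 28 and G12T in 21. At the unconstrained position 7 A was the commonest base, in 163 of 270 members, and at position 8 T, in 145. Weak positions were thus found in both parts and lay next to positions that almost never varied. Only matches with at most 2 mismatches were counted, so these shares are in part kept high by that rule.

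**Figure D2:**
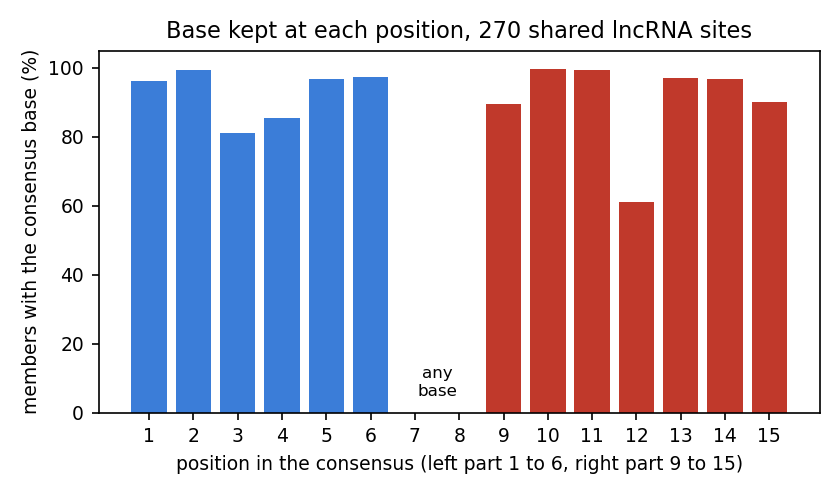
Percent of the 270 members with the consensus that keep the consensus base, by position from 1 to 15, with the left part in blue, the right part in red and the unconstrained positions 7 and 8 empty. Position 12 stands lowest at 61.1% and position 10 highest at 99.6%.

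Members without the consensus often held its parts further apart or closer together. In 82 of these 157 sites, or 52.2% (44.5 to 59.9), CTGTCC and GGTGCTG followed each other on 1 strand with at most 1 mismatch in each part and 0 to 20 bases other than 2 between them. The same was seen in 32 of 305 windows without the consensus, or 10.5% (7.53 to 14.4), and in 43.3% (40.7 to 45.9) of all shared sites without it. Without any mismatch in either part, 24 of the 157 sites, or 15.3% (10.5 to 21.7), held them, against 10.3% (8.80 to 12) of all shared sites without the consensus, and in 21 of those 24 the distance was 7 to 10 bases. At 7 to 10 bases, a range chosen after the values were seen, 29.3% (22.7 to 36.8) of the members without the consensus and 1.64% (0.702 to 3.78) of their windows held both parts. All shared sites without the consensus held them at these distances in 24.5% (22.4 to 26.9), so that the interval overlapped that of the members. Examples from microRNA host genes and from a LINC gene are shown with both parts in capitals.
MIR9-3HG, chr15:89962785-89962804, plus strand, 7 bases apart: CTGTCCtcccagtGGTGCTG
MIR137HG (shared with ENSG00000288810), chr1:98513945-98513966, minus strand, 9 bases apart: CTGTCCattcgtccaGGTGCTG
LINC01749, chr20:61713810-61713830, minus strand, 8 bases apart: CTGTCCgcctccctGGTGCTG

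MIR137HG and MIR9-3HG are named as hosts of microRNAs known for their part in neuronal differentiation, and the split element lies in sites of 749 and 999 bp. In the annotation used here no microRNA gene lay inside MIR137HG or MIR663AHG. The 5 widest members with no consensus match at 3 mismatches were in MIR3976HG (1049 bp), MIR663AHG (949 bp), LINC02145 (849 bp), ENSG00000287726 (849 bp) and B3GAT1-DT (799 bp). The LINC02145 site held the parts 8 bases apart, and the ENSG00000287726 and B3GAT1-DT sites held them 9 apart. ENSG00000287726 lies near PCDH1, a protocadherin gene, and B3GAT1-DT is transcribed away from B3GAT1, whose enzyme makes a carbohydrate epitope of neural cells. The MIR3976HG and MIR663AHG sites held no such pair. In all, 75 members held neither the consensus nor its parts at another distance, with a median width of 299 bp (99 to 1049 bp).

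At distance 0 the members turned out to share a single sequence. Of 18 members with the parts directly joined, 16 held the same 13 bases, in which the left part runs straight into a right part whose first base is A. The same 16 sites supplied 6 of the 11 members at distance 13 and 11 of the 13 at distance 14. Without them, 66 of the 157 members without the consensus, or 42.0% (34.6 to 49.9), held the parts at another distance. The 13-base run was not particular to lncRNA genes. It was in 10.2% (6.37 to 15.9) of the members without the consensus and in 6.38% (5.22 to 7.78) of all shared sites without it. These intervals overlapped. The run was noticed after the values were seen and is shown in the run itself, with the bases that flanked it most often, and in 4 of the widest of these members, with the 13 bases in capitals.
the 13-base run with its flanks, 19 bases: gatCTGTCCAGTGCTGaaa
ENSG00000258868, chr14:49540183-49540215, minus strand: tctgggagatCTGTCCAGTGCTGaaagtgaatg
ENSG00000234860, chr9:102311908-102311940, plus strand: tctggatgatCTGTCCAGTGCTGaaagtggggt
SMIM2-AS1, chr13:44743850-44743882, plus strand: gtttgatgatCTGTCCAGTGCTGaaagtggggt
LINC02315, chr14:41458658-41458690, plus strand: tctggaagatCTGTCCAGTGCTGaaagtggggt

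The 16 sites were 149 to 499 bp wide, with a median of 349 bp. The sequence around the run was closely alike between lncRNA genes on different chromosomes. On chromosomes 1 to 22, X and Y of hg19 the 13-base run occurred 446 times. Of these copies 92, or 20.6% (17.1 to 24.6), lay inside shared NRSF/REST sites, 16 of them in members. The 19-base run, which adds the flanks, occurred 95 times. Of its copies 69, or 72.6% (62.9 to 80.6), lay inside shared sites, 14 of them in members. Outside the members it was 55 of 81, or 67.9% (57.1 to 77.1). Of the copies at positions that met the gene rule for lncRNA genes, 14 of 18 lay in shared sites. The run and its flanks were read from members, which are shared by the rule, so this share is raised by that choice.

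Copies that differ in 1 base were mostly outside the lists. The commonest change was G8A, with the leading C of the 13 as position 1. It alters the same base of the right part as consensus position 10. The G8A form occurred 317 times, and 3 copies, or 0.946% (0.322 to 2.75), lay inside shared sites, 1 of them in a member. At positions that met the gene rule it was 1 of 53. The form with G8T occurred 51 times and lay in no shared site, which leaves an upper Wilson bound of 7.00%. The A7G form, whose right part is the exact GGTGCTG, occurred 4 times and lay in shared sites in 2, neither of them a member. Over all forms with 1 base changed, these included, 5 of 472 copies, or 1.06% (0.453 to 2.46), lay in shared sites.

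How often the surrounding sequence is repeated was alike for both forms. Words of 32 bases within 150 bp of the copies occurred once in the genome in a median of 82.6% for the 19-base run and 80.9% for the G8A form. Among copies where at least 80% of the words occurred once, 43 of 56 copies of the run, or 76.8% (64.2 to 85.9), and 1 of 166 copies of the G8A form, or 0.602% (0.106 to 3.33), lay in shared sites. No test was made. The run and its flanks were picked from sites of these lists and the changed forms were not. The gap between them is therefore in part set by that choice.

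**Figure D3:**
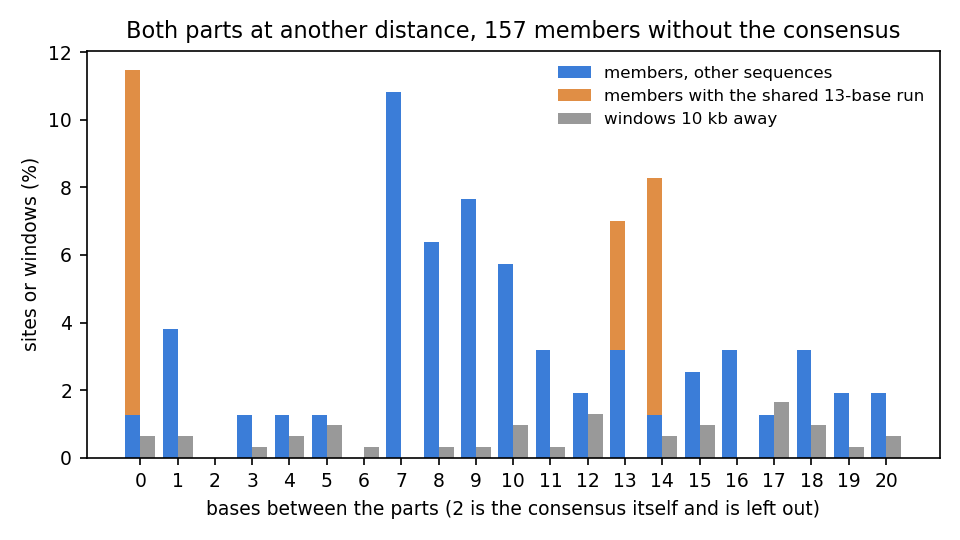
Percent of the 157 members without the consensus (blue, with those holding the shared 13-base run in orange) and of their 305 windows (grey) in which the left and right parts lie 0 to 20 bases apart. The orange sites make up 16 of the 18 members at 0 bases, while the members at 7 to 10 bases hold other sequences.

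**Figure D4:**
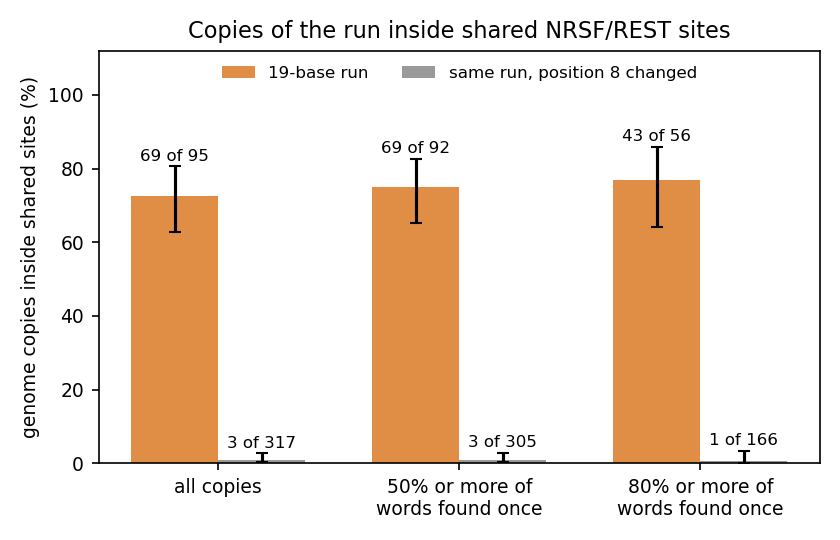
Percent of the copies of the 19-base run (orange) and of the same run with position 8 changed to A (grey) in hg19 that lie inside shared NRSF/REST sites, with 95% Wilson intervals, for all copies and for copies whose surroundings are mostly found once. The run was at 69 of 95 and the changed form at 3 of 317 over all copies. Only the run was picked from such sites, which raises its share.

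A smaller repeated group was found at a distance of 7. The members in FAM95A, CYP4F29P and ENSG00000289725, on chromosomes 2, 21 and 9, held the same 20 bases, CTGTCCaacctctGGTGCTG. These 20 bases occurred 8 times in the genome and 4 times in shared sites. Of the 32-base words of these sites, 24.0%, 73.2% and 76.1% were repeated elsewhere. Over the whole set, 289 members, or 67.7% (63.1 to 71.9), held only words found once, against 69.9% (68.4 to 71.4) of all shared sites. In 27 members, or 6.32% (4.38 to 9.04), more than 50% of the words were repeated, against 4.31% (3.68 to 5.05) of all shared sites. Of those 27, 17 held the consensus, or 63.0% (44.2 to 78.5), whereas 9 of the 91 sites in no gene with as many repeated words did, or 9.89% (5.29 to 17.7). Inside coding genes it was 5 of 14, or 35.7% (16.3 to 61.2), which overlapped the interval of the members, and over all shared sites 39 of 148, or 26.4% (19.9 to 34.0). How reads with several possible positions were treated for these lists is not given in the sources used here.

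The density of shared sites in lncRNA genes was like that of the surrounding genome. The members came to 0.996 per Mb of known bases (0.904 to 1.09, exact Poisson interval), over 429 Mb of lncRNA genes outside coding genes and coding 5′ ends. Shared noncoding sites inside coding genes came to 0.950 per Mb (0.896 to 1.01), shared sites in no gene to 1.07 (1.01 to 1.13) and shared sites within 2 kb of coding 5′ ends to 6.57 (5.99 to 7.19). The lncRNA genes that hold a member were long, with a median length of 93804 bp against 6232 bp for all 18702 lncRNA genes. A member was found in 0.372% of lncRNA genes under 10 kb, 1.84% of those of 10 to 50 kb, 7.29% of those of 50 to 200 kb and 18.7% of those of 200 kb and over.

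Within lncRNA genes a minority of the sites lay in exons or at 5′ ends. The midpoint lay in an exon in 54 members, or 12.6% (9.82 to 16.1), where exons took 5.61% of the length of all lncRNA genes outside coding genes and coding 5′ ends. It lay within 2 kb of the gene's own 5′ end in 33 members, or 7.73% (5.56 to 10.7), where these stretches took 4.11% of that length. For lncRNA genes with an approved symbol the share at 5′ ends was 4.98% (2.80 to 8.69). In the genes with a member both stretches took less, 2.62% and 0.896%, but these genes were chosen for holding a site and are long, so that nothing is read from those values. The shares over all lncRNA genes were added after seeing the data, and no test was made. Most members were far inside, with a median distance of 41196 bp from the lncRNA 5′ end over all 427. Exonic members held the consensus in 55.6% (42.4 to 68.0) and the rest in 64.3% (59.4 to 69.0), and members within 2 kb of the lncRNA 5′ end in 54.5% (38.0 to 70.2) against 64.0% (59.1 to 68.5) of the others, so that these intervals overlapped. The nearest protein-coding gene was a median of 78781 bp away, and it lay within 100 kb of 239 members, or 56.0%.

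The widest members included sites in ZIM2-AS1, in ENSG00000232413 and in 3 microRNA host genes. Site width and line order are the only graded values in the lists, and all widths fall on steps of 50 bp. Over the 427 members width and order number in the basal list had a Spearman rho of -0.92, so wide sites came early. The widest site, in an intron of ZIM2-AS1 (chr19:57149001-57151449), was 2449 bp wide at the basal and 2349 bp at the increased dosage. ZIM2-AS1 is antisense to the imprinted zinc finger gene ZIM2, and this site held the 5 consensus copies printed above, 4 of them within 57149489 to 57149668. The next, in ENSG00000232413 (chr9:128844501-128846299), was 1799 and 1849 bp wide with 2 copies, and its nearest coding gene was PBX3, a homeobox transcription factor. The ITFG2-AS1 site (chr12:2861351-2862999) was 1649 and 1349 bp wide with 3 copies. Of the 10 widest members 9 held the consensus and 4 held 2 or more separate copies, against 8 of the next 90 and 4 of the remaining 327. In the windows of the 10 widest, 1 of 20 held it and none held 2. Over all widths 16 of the 427 members, or 3.75%, held 2 or more separate copies. Among all 3431 shared sites 135 did, or 3.93%, so that the shares were alike.

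Further wide sites with an exact copy lay 11744 to 962237 bp from the nearest coding gene. The LINC00698 site (chr3:63053401-63054599) was 1199 and 999 bp wide, with SYNPR, a synaptic vesicle protein gene, as the nearest coding gene at 159991 bp. The ENSG00000287469 site was 1099 and 949 bp wide, nearest to CBLN1, which codes for a synapse organiser, at 119578 bp. The GNAO1-DT site was 1049 and 849 bp wide, in the transcript divergent from the gene of a G protein subunit, and its nearest coding gene was CES5A at 58132 bp. The PDYN-AS1 site was 949 and 899 bp wide and lay 11744 bp from PDYN, the gene of an opioid peptide precursor. The LINC01234 site was 899 bp wide and overlapped sites of 149 and 899 bp at the increased dosage. The ENSG00000228566 site, 1149 and 949 bp wide, was 962237 bp from the nearest coding gene, REEP3. Of these named sites, those with a single partner were narrower at the increased dosage by 50 to 200 bp. This did not hold for all wide sites with an exact copy. The C3P1 site, as wide as the LINC01234 site at the basal dosage (899 bp), was 949 bp wide at the increased dosage.

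MicroRNA host genes held 21 members in 13 of 81 genes named in the form MIR…HG, or 16%, where 2.16% of all lncRNA genes held one. The MIR7-3HG site (chr19:4768851-4770549) was 1699 and 1949 bp wide, lay over an exon 657 bp from the gene's 5′ end, and its midpoint was 982 bp from MIR7-3, whose microRNA is abundant in neuroendocrine cells. The MIR9-1HG site (chr1:156383401-156384849) was 1449 bp wide at the basal dosage, overlapped sites of 249 and 749 bp of the increased-dosage list, and lay 5998 bp from MIR9-1. The widest MIR9-3HG site (chr15:89904201-89905899) was 1699 and 1749 bp wide, lay 240 bp from a lncRNA 5′ end and held no consensus, with a best match of 3 mismatches. miR-9 and miR-7 act in neurons and neuroendocrine cells. The mature microRNAs of these hosts are shown as given by RefSeq (GRCh38.p14 table) with the seed, bases 2 to 8, in capitals.
miR-9-5p (MIR9-1 and MIR9-3): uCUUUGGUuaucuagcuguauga
miR-7-5p (MIR7-3): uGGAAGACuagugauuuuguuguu

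Of the other host genes, MIR124-2HG held 3 members of 1099, 499 and 199 bp at the basal and 1049, 499 and 199 bp at the increased dosage. Its widest site held an exact copy of the consensus and lay 1086 bp from MIR124-2, a microRNA of neurons. MIR3659HG (849 bp at both dosages), MIR646HG (749 and 599 bp) and MIR4500HG (449 and 599 bp) each held a consensus with 1 mismatch. The MIR663AHG sites of 1049 and 949 bp came late in the list for their width, at order numbers 1900 and 2043, while the MIR3976HG site of 1049 bp was at 570. Gene length moved with these shares. Of the host genes of 50 kb or longer 11 of 32 held a member, where 9.84% (8.79 to 11.0) of all lncRNA genes that long did, and the share was not tested because the list was drawn up with earlier results known.

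The list of lncRNA genes known from neural tissue, drawn up with earlier results known, held 15 members in 9 of 36 annotated genes, or 25%, beside the 2.16% of all lncRNA genes. Besides the microRNA hosts these were BDNF-AS, LINC-PINT, SOX2-OT and ZFHX4-AS1. The LINC-PINT site was 899 and 1199 bp wide with T4A as its only substitution. The SOX2-OT site, in the transcript that spans the neural stem cell gene SOX2, was 499 and 549 bp wide and held an exact copy. The ZFHX4-AS1 site, 449 and 549 bp wide, also held the consensus. The BDNF-AS site, 349 and 249 bp wide, did not hold it. Of the 23 listed genes of 50 kb or longer 7 held a member, beside the 9.84% of all lncRNA genes of that length. Among 13 annotated genes of imprinted loci, only ZIM2-AS1 held members. By name, 217 members, or 50.8%, lay in genes with only an Ensembl identifier, 109 in LINC genes and 57 in genes named after a neighbour, and their consensus shares of 65.9% (59.4 to 71.9), 61.5% (52.1 to 70.1) and 61.4% (48.4 to 72.9) had overlapping intervals.

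Most lncRNA genes with a member held just 1, which was the case for 357 of 404, and 8 held 3 or more. ZIM2-AS1 (chr19:57106681-57310970) held 5, of 2449, 949, 649, 449 and 549 bp at the basal and 2349, 899, 599, 449 and 549 bp at the increased dosage, all with the consensus. Of these, 4 also lie in ENSG00000286125, which overlaps it. MIR9-3HG (chr15:89904810-89968214) held 5, of 1699, 299, 749, 149 and 999 bp, and only the 749-bp site held the consensus. LINC00907 held 4 members (2 with the consensus) over 254350 bp, LINC02808 held 4 (3 with it) over 50900 bp, and ENSG00000286736 and LINC02196 held 3 each, all with it. Only 22 members, or 5.15%, had another member within 5 kb, against 6.43% of the shared sites inside coding genes and 14% of those in no gene.

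The width of the members was nearly alike at both dosages. The median was 449 bp in each list, with quartiles of 299 and 649 bp at the basal and 299 and 624 bp at the increased dosage. The difference, increased minus basal, had a median of 0 bp with quartiles of -50 and 50 bp, and 349 members, or 81.7%, stayed within 100 bp. At the increased dosage 146 members were wider, 155 narrower and 123 equally wide, and another 3 overlapped 2 sites. Over all shared sites 35.3% were wider and 36.8% narrower, close to the 34.2% and 36.3% of the members. The widths in both lists had a Spearman rho of 0.91 over the 427 sites, and the order numbers had 0.96. Both lists share the sequence below these sites and the caller.

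**Figure D5:**
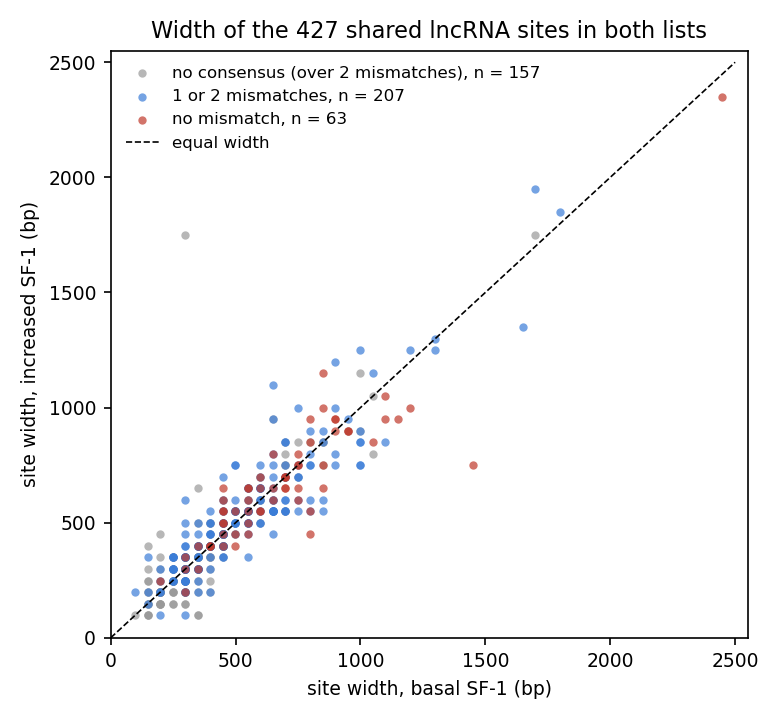
Width of each of the 427 members in bp in the basal list (x axis) and in the increased-dosage list (y axis, the site with the longest overlap), coloured by the best consensus match, with a dashed line at equal width. Points lie along the line from 99 to 2449 bp, and the points farthest from it are sites that are split in 1 list and joined in the other.

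The largest changes came from sites joined or split between the lists. The 299-bp MIR9-3HG site (chr15:89905951-89906249) lay under the same 1749-bp site of the increased-dosage list as its 1699-bp neighbour, so its difference of 1450 bp repeats that site. The MIR9-1HG site went from 1449 bp to parts of 249 and 749 bp. Among sites without such a split, LINC01933 went from 649 to 1099 bp, LINC02240 from 799 to 449 bp and ITFG2-AS1 from 1649 to 1349 bp. With 1 library per dosage these differences have no replicate check.

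The SF-1 consensus, CAAGG followed by A, C or T and then CA, was found in 71 members, or 16.6% (13.4 to 20.5), in 15.1% of all shared sites and in 9.13% (7.38 to 11.3) of the members' windows. The intervals of members and windows did not overlap. Counted outside matches of the NRSF/REST consensus at up to 3 mismatches, with which it can share bases, the SF-1 consensus was in 55 members, or 12.9% (10 to 16.4), and in 8.67% (6.96 to 10.7) of windows. These intervals overlapped, which is not a test of the difference. Such NRSF/REST matches were in 78.7% of members and 16.6% of windows, so more of the members' sequence was set aside. The same count gave 10% (9.07 to 11.1) of all shared sites, 9.86% (8.28 to 11.7) of those inside coding genes and 9.67% (8.08 to 11.5) of those in no gene, and the interval of the members overlapped each of these.

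Sites close to the thresholds varied in width. The LINC02217 member overlapped its partner by 49 bp, and a 149-bp basal site in SOX2-OT was left out with a gap of 2 bp to the nearest site of the other list. A 249-bp member in ENSG00000227400 was kept at 2051 bp from the 5′ end of RPRM, while a 1099-bp site in LEMD1-DT with an exact consensus was left out at 1781 bp from BLACAT1. The distance rule left out 26 shared sites in lncRNA genes in all.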

How the data were processed

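NRSF/REST ChIP-seq gave 1 library per SF-1 dosage. Reads had been aligned to hg19 with ELAND by the authors, per the paper's methods, and the submitters' processing notes name CASAVA 1.6. Each library has its own site list, as the authors deposited it, with a score of 1000 in every line. The name column counts the lines, and among the members their order in the basal list went with site width. The caller's settings for these lists are not given in the sources used here. Read counts are not part of the lists, so depth is unknown.

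Starts were counted from 1. Midpoints were placed on GENCODE release 44 (64486 genes, hg19 coordinates). Bases came from the hg19 primary assembly. Shares carry 95% Wilson intervals. Scripts used Python 3.11.15, numpy 2.4.6, scipy 1.17.1, pysam 0.24.0 and numba 0.67.0 and were tested on simulated data. Words of 32 bases were counted on both strands. Named sites were the 10 widest, the 10 widest with an exact consensus, those in genes with 3 or more members or on the gene lists (at most 20), the largest width changes, those at thresholds, the 5 widest without a match at 3 mismatches and those with several matches. All other named items were chosen after their values were seen. Members and lists were chosen with earlier results of these data known. Alternatives were other overlaps, widths, distances, annotations, mismatches and windows, and the 13-base run, its copies and the repeated words were examined after seeing the data.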

Additional observations from a re-analysis of the deposited data

How the results depend on the processing

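Of 56 recomputed values under other settings, 43 stayed within the interval of the reported value (or, for a count of sites, within 1.5 times it) and 13 did not. With lncRNA genes limited to those with an approved symbol the count of sites fell from 427 to 221, since fewer genes were used. The share within 2 kb of the lncRNA 5′ end went from 7.73% to 4.98%, and the reason for this was not tested. With sites at or above the median width of their own list the consensus share was 72.4% and the median width 499 bp, as narrow sites were left out by construction. By the number of mismatches allowed, members and windows held the consensus in 14.8% and 0% (none), 41.9% and 0% (1) and 78.7% and 16.6% (3), and windows 20 kb away held it in 1.41%. Within 1 kb of the lncRNA 5′ end the share was 3.98%, and with no mismatch in either part the share with the parts at another distance was 15.3%. Other overlap rules gave 403 to 405 sites, counting from the increased-dosage list 428, and the other distance rules 413 and 453. Among alternatives chosen after seeing the data, leaving out the 13-base run gave 46.8% for the parts at another distance, and leaving out sites with mostly repeated words gave 400 sites, 63.2% with the consensus and 11.0% in exons. No paired analysis was possible because there is 1 library per dosage. Without read counts or replicates, neither a site missing from a list nor a change in width can be set against sampling error.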
